A study of Mus musculus with 4 samples.

Results

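Tight junctions and cadherin junctions were examined in total RNA from stomachs of mouse embryos at E15.5, a stage before birth. The members were the genes whose symbol in the deposited table is a claudin (Cldn with a number), Ocln, a Tjp gene, a Marveld gene or a cadherin (Cdh with a number). Cdh5, the cadherin of endothelial cells, was left out. The rule found 53 of 51098 genes in the table. Of these, 22 are cadherins, and the other 31 were counted as tight junction genes by family name. The rule used only the symbols.

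The stated design set stomachs homozygous for the Fgf9LacZ allele (genotype Fgf9LacZ/LacZ, treatment field Fgf9KO, called Fgf9_null here) against stomachs with 1 copy of it (Fgf9LacZ/+, treatment field control, called Fgf9_het here). Each group has 2 samples, numbered 2 and 3. By the genotype field, every sample carries at least 1 Fgf9LacZ allele, while the titles of the Fgf9_het samples read WT. No source used here says whether a sample was 1 stomach or a pool. Fgf9 encodes a secreted fibroblast growth factor.

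A tight junction seals the space between neighbouring epithelial cells near their apical side. Claudins form its strands and set which ions pass, occludin and tricellulin are further membrane proteins of the strand, and the ZO proteins encoded by Tjp genes tie the strand to actin. Cadherins join cells through calcium-dependent binding of like molecules, and type I and type II cadherins bind catenins inside the cell. In the stomach, claudin-18 is known as the claudin of the acid-resistant gastric epithelium and E-cadherin (Cdh1) as the adhesion molecule of all its epithelial cells.

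The columns of the table must be described before any member, because they do not hold 4 separate libraries. Fgf9 had 133 and 131 reads in Fgf9_null replicates 2 and 3 and the same 133 and 131 reads in Fgf9_het. Taking a tolerance of 0.001 reads, 37 of the 53 members had the same count under both labels in replicate 2, and 41 did in replicate 3. The largest difference for any member was 6 reads, for Cdh1. A chi-square statistic per degree of freedom over the 45 members with at least 10 summed reads was 9.17e-05 between the replicate 2 columns and 2.4e-04 between the replicate 3 columns. It was 2.10 between columns of different number. Over all genes the statistic was 4.46 and 4.64 for the same pairs of columns, and it was 0.00079 and 0.0039 without 4 small RNAs, picked out after their values were seen. Rn7s1, the most abundant of these (the others are Rn7s6, Gm19220 and Gm26461), had 529306 and 588969 reads under Fgf9_null, beside 255292 and 291630 under Fgf9_het. All 4 were higher under the Fgf9_null label. Apart from these RNAs, same-numbered columns differed by less than sampling noise, and each such pair was counted as 1 sample. The table also has 2 columns without a name, which were not used, and whether the names stand over the columns they were meant for cannot be told from the files. The pairs are called library 2 and library 3, and which genotype either had cannot be told from the files.

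**Figure D1:**
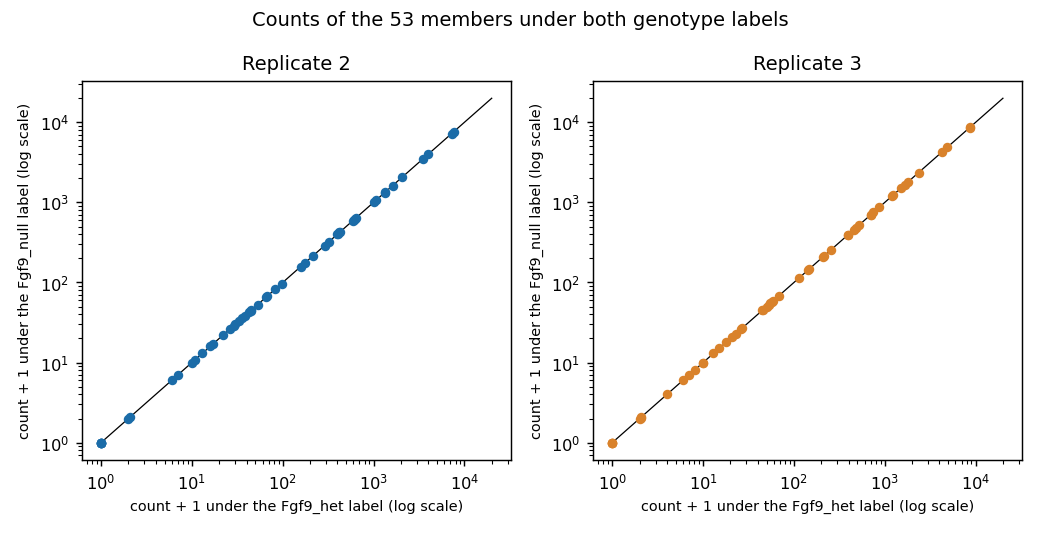
Count plus 1 of each of the 53 members under the Fgf9_het label (horizontal, log scale) and under the Fgf9_null label (vertical, log scale), for replicate 2 on the left and replicate 3 on the right. Every point lies on the line of equal counts, with at most 6 reads between the labels.

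The comparison of Fgf9_null with Fgf9_het therefore set each library against itself for the junction genes, and none of them was called. Cdh1 (E-cadherin, ENSMUSG00000000303, a protein-coding gene on the plus strand of GRCm38 chromosome 8 from 106603351 to 106670246) had 7590 and 8723 reads in the Fgf9_null columns and 7596 and 8729 in those of Fgf9_het. Cldn18 (ENSMUSG00000032473, a protein-coding gene on the minus strand of chromosome 9 from 99689461 to 99717267) had 7216 and 8621 reads against 7219 and 8624. edgeR's quasi-likelihood test called 0 of the 42 members it could test at an adjusted p under 0.05, beside 0% of all 19987 genes tested. At an unadjusted p under 0.05 it found 0 members and 4 genes in all, which is 0.02% of the genes tested. The largest absolute log2 fold of a tested member was 0.00395, and it was 0.565 to 1.08 with 1 column left out, when library 2 and library 3 no longer balance. For Cdh1 it was -0.00075 (SE 0.0199, edgeR adjusted p = 1) and for Cldn18 -0.00024 (SE 0.0378, edgeR adjusted p = 1). DESeq2 and limma-voom also called 0 members, with 3 and 0 genes called in all. None of these values measures an effect of losing Fgf9.

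What the table does hold is the level of each junction gene in the embryonic stomach, in 2 libraries. Levels are in CPM, the share of a column's reads that fell on a gene, averaged over the 2 columns of a library. The column totals ran from 19269851 to 22713416, so that 3 counts, taken as the detection floor, were worth 0.132 to 0.156 CPM. Where levels of different genes are compared, CPM was divided by the length in kilobases of the gene's longest protein-coding transcript in GENCODE M21. In whole stomachs, fewer cells of a type and less RNA per cell cannot be told apart. Epithelial markers fixed in a list (10 genes, led by the keratin gene Krt8 at 574 and 588 CPM) were all above 1 CPM in both libraries. Markers of smooth muscle (8 of 8) and of endothelium (10 of 10) were too.

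Of the 53 members, 35 stood at 1 CPM or above in each library, and 21 of these had a mean of at least 10 CPM. A further 10 members had 3 or more counts in both libraries, and 8 did not, all of them claudins. The members summed to 1898 CPM in library 2 and 1917 in library 3. The claudins held 592 and 610 CPM of this. Type I cadherins held 490 and 482 CPM, and type II cadherins 253 and 264 CPM. These sums differed little between the libraries, and in each of the 6 roles 1 gene held over 50% of the CPM in both. Per kilobase, the share of the leading gene was under 50% for claudins and for ZO proteins in both libraries.

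**Figure D2:**
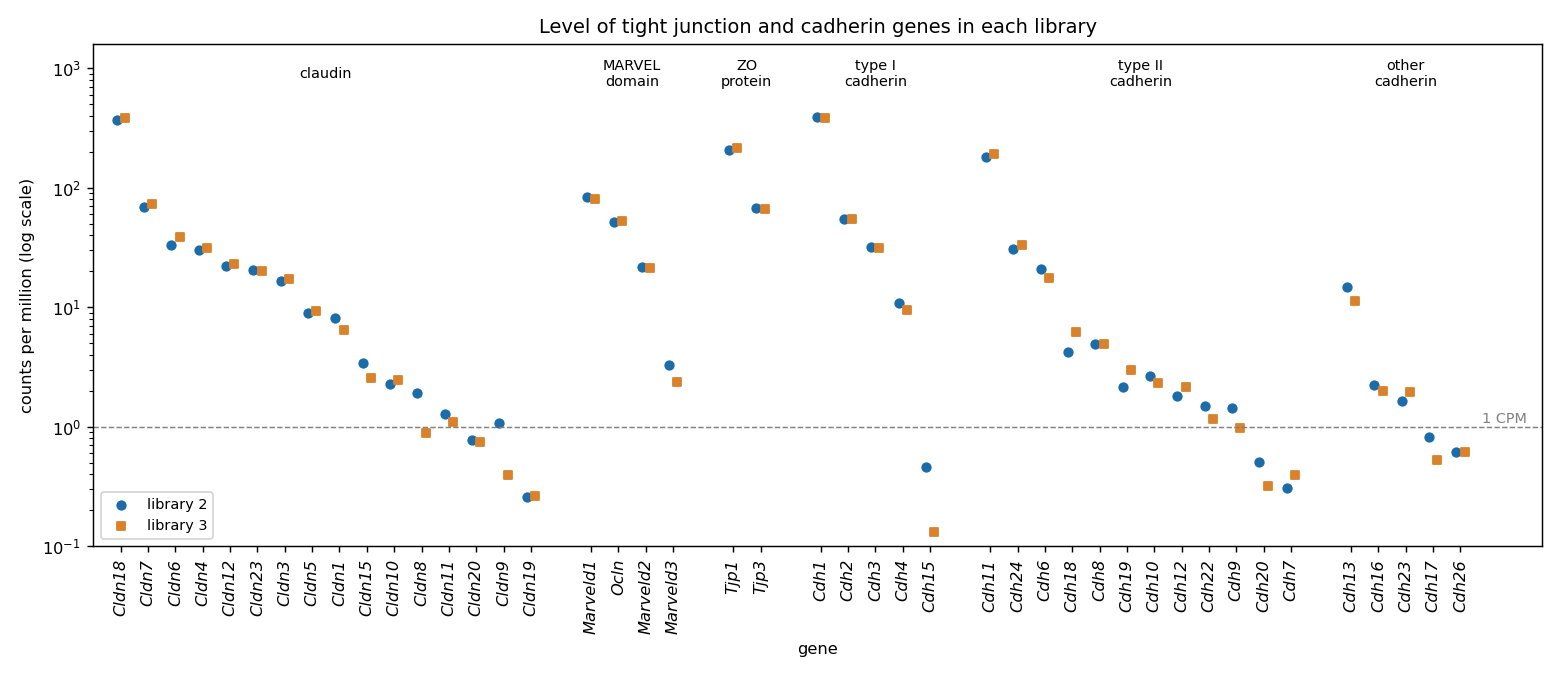
Level of 44 of the 45 members with at least 3 counts in both libraries, in CPM on a log scale, by role; circles are library 2 and squares library 3, and the dashed line marks 1 CPM. Each role is led by 1 gene, from Cdh1 near 389 CPM to Cdh13 near 13.0 CPM, and the libraries part visibly only among low genes.

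Cldn18 led the claudins by a wide margin. Its level was 372 CPM in library 2 and 382 in library 3, and it made up 62.8% and 62.6% of all claudin CPM. Per kilobase, a scale on which its longer transcript counts for less, its share was 39.8% and 39.4%. Cldn18 was 1.71 and 1.66 times as high per kilobase as Cldn7, the next claudin. With the merged length of all exons in place of the longest transcript, that ratio rose to 2.30. The gene has separate start sites for a lung form and a stomach form of the protein. The table sums both forms, so the form was not measured here.

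The stretches just upstream of both Cldn18 start sites are shown because they are where the forms part, together with those of Cldn3 and Cldn4, neighbouring genes with similar levels. They are RefSeq promoter windows on GRCm38.p6, 250 bases ending just before the start site, given 5′ to 3′ on the gene's strand. Capitals mark CAGGTG or its reverse complement CACCTG, the E-box bound by Snail and Zeb factors, which are known repressors of Cdh1 and of several claudins.
Cldn18, upstream start, chr9:99717268-99717517, minus strand: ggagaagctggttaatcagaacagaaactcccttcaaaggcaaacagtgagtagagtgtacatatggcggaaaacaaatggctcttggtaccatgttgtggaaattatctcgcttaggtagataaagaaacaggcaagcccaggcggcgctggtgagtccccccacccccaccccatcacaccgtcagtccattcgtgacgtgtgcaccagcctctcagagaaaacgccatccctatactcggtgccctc
Cldn18, downstream start, chr9:99710064-99710313, minus strand: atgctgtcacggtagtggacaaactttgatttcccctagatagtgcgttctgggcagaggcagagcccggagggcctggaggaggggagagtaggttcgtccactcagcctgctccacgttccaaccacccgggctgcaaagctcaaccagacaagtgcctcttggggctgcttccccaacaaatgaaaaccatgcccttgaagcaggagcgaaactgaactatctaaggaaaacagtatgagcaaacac
Cldn4, chr5:134946935-134947184, minus strand: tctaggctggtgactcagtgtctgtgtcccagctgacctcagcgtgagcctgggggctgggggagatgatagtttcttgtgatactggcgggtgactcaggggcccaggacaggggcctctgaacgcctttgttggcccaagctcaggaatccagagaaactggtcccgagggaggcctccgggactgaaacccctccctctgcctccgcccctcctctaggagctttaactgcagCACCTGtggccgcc
Cldn3, chr5:134985964-134986213, plus strand: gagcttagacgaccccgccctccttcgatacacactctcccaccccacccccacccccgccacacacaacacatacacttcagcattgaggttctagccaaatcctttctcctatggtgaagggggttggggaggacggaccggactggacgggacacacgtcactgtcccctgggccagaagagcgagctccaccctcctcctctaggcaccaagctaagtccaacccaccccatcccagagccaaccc

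Of these windows only that of Cldn4 holds the E-box, with its first base 14 bases before the start site. Over all members, RefSeq windows were found for 38 genes (51 windows), and 10 windows of 8 genes held CAGGTG on either strand: those of Cdh7, Cldn4, Cldn6, Cldn7, Cldn14, Cldn34a, Ocln and Tjp3. That is 19.6% of the members' windows, beside 17.2% of all 32851 windows of the same length. The share was close to that of all promoters, and genes with the E-box ranged from Cldn7 at 71.6 CPM to Cldn14 with no counts.

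Cldn7, Cldn6, Cldn4 and Cldn3 followed Cldn18. Cldn7, a claudin found along much of the gut epithelium, stood at 69.7 and 73.6 CPM. Cldn6, a claudin known for early embryos and fetal epithelia, had 33.3 and 38.7 CPM. Cldn4 and Cldn3, which both encode receptors of a Clostridium enterotoxin, had 30.3 and 31.1 CPM and 16.5 and 17.3 CPM. Together with Cldn18 these genes made up 85.6% and 86.7% of the claudin level per kilobase in libraries 2 and 3. Cldn12, a claudin that lacks the usual ZO-binding end, had 22.1 and 22.9 CPM. Cldn23 had 20.5 and 20.2 CPM.

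The other claudins were lower in CPM. Cldn5, known from endothelial tight junctions, had 9.0 and 9.3 CPM, and Cldn1, the claudin of squamous epithelia, had 8.1 and 6.5 CPM. The endothelial gene Cdh5 stood at 94.0 and 114 CPM in the same libraries. Per kilobase, Cldn5 had 6.33 and 6.57 and Cdh5 had 23.5 and 28.5. On that scale Cldn5 stood above Cldn12, which had 5.90 and 6.09. Cldn15, a pore-forming claudin of the intestine, had 3.4 and 2.6 CPM, while Cldn10 and Cldn11 lay between 1.1 and 2.5 CPM in both libraries. Cldn2, the cation-pore claudin of leaky epithelia, had 1 count in each library, under the floor. Cldn14, Cldn16, Cldn17 and Cldn34a had 0 counts, which allows a level of up to 0.132 to 0.156 CPM in a column. All claudins of this group thus stood below 10 CPM in both libraries.

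**Figure D3:**
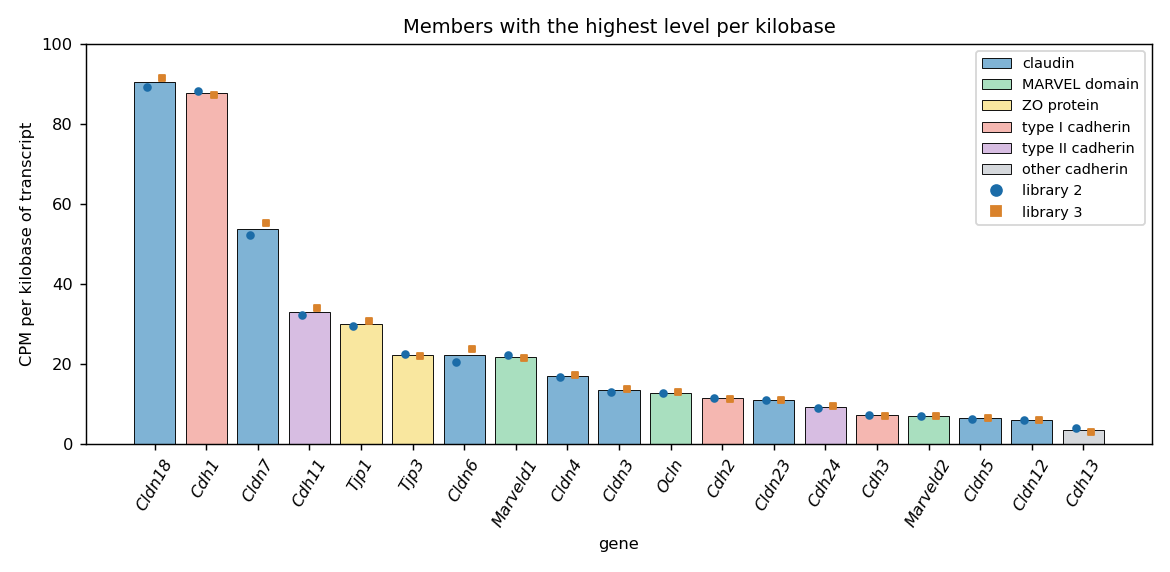
CPM per kilobase of longest protein-coding transcript for 19 of the 20 members highest on that scale; bars are the mean of the 2 libraries, circles library 2 and squares library 3, and colours give the role. Cldn18 and Cdh1 stand near 90.4 and 87.8 and Cldn7 near 53.7, above Cdh11 near 33.0 and the others drawn.

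Several members are neighbours in the genome, and neighbours did not share a level as a rule. Cldn4 (chromosome 5, 134945119 to 134946934, minus strand) and Cldn3 (134986214 to 134987472, plus strand) lie 39279 bases apart, each with a single exon. Their levels per kilobase were close, at 16.7 and 17.1 for Cldn4 and 13.1 and 13.8 for Cldn3. Cldn6 (chromosome 17, 23679249 to 23682446) and Cldn9 (23682584 to 23684026) are only 137 bases apart and converge on opposite strands. Cldn6 had 20.5 and 23.8 CPM per kilobase, and Cldn9 had 0.750 and 0.276, on 21 and 9 counts. The annotated genes do not overlap. Reads running past the annotated end of 1 gene could be assigned to the other. The strand setting of the counting is not given in the sources used here, and the assignment of reads between these genes was not tested. Cdh3 and Cdh1 lie 46053 bases apart on chromosome 8, in the same direction. Cdh1 was 12.2 and 12.3 times as high per kilobase as Cdh3.

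The MARVEL domain genes were led by Marveld1 and Ocln. Marveld1 stood at 83.4 and 80.7 CPM. Ocln, which encodes occludin, had 51.6 and 52.6 CPM. Marveld2 encodes tricellulin, which seals the points where corners of neighbouring cells meet, and had 21.7 and 21.4 CPM. Ocln and Marveld2 are neighbours on chromosome 13, and Ocln was 1.83 and 1.89 times as high per kilobase. Marveld3 was far lower, at 3.3 and 2.4 CPM.

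Tjp1, which encodes ZO-1, had 207 and 217 CPM, and Tjp3 (ZO-3) had 68.3 and 66.4 CPM. The distance was smaller per kilobase, where Tjp1 was 1.30 and 1.40 times as high as Tjp3. Tjp1 is also made by cells outside epithelia, as ZO-1 joins adherens junctions there.

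Cdh1 led the cadherins, with 391 and 387 CPM, or 79.9% and 80.2% of type I cadherin CPM. Its level per kilobase was 88.3 and 87.3, against 89.2 and 91.6 for Cldn18. The order of these 2 genes turned when merged exon lengths were used, with 85.0 for Cdh1 and 84.6 for Cldn18, so they cannot be ranked. Cdh2 (N-cadherin), of nerve, mesothelium and muscle, had 55.4 and 54.8 CPM, and Cdh1 was 7.73 and 7.71 times as high per kilobase. That ratio was 12.5 with merged exon lengths. Cdh3 (P-cadherin), of the basal layer of stratified epithelia, had 31.8 and 31.1 CPM. Cdh4 (R-cadherin) had 10.9 and 9.5 CPM. Cdh15 (M-cadherin), of skeletal muscle, had 9 and 3 counts.

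Among type II cadherins, Cdh11, known from mesenchyme, stood apart at 181 and 191 CPM, which was 71.7% and 72.6% of the CPM of the 12 genes. Per kilobase it had 32.1 and 33.9, so Cdh1 was 2.75 and 2.58 times as high, or 4.06 times with merged exon lengths. Cdh1 and Cdh11 together made up 73.9% and 74.4% of the level per kilobase of all 22 cadherin members. Cdh24 had 31.0 and 33.2 CPM and Cdh6 (K-cadherin) had 20.9 and 17.5 CPM. The remaining 9 type II genes had at most 6.25 CPM in either library. These include Cdh19, a cadherin of Schwann cell precursors and glia, at 2.2 and 3.0 CPM, beside the glial gene Sox10 at 23.1 and 25.8 CPM. Per kilobase, Cdh19 had 0.553 and 0.758 and Sox10 had 8.32 and 9.28. No type II cadherin was without counts, and Cdh7, with the lowest mean CPM, had 6 and 9.

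The other cadherins were few and low. Cdh13 (T-cadherin), which is held to the membrane by a lipid anchor and has no catenin-binding tail, had 14.8 and 11.3 CPM. Cdh16, known from the kidney, had 2.2 and 2.0 CPM, and Cdh23, a part of the tip links of hair cells, had 1.65 and 1.95 CPM. Cdh17 (LI-cadherin), of the intestinal epithelium, had 16 and 12 counts, and Cdh26 had 12 and 14. The intestinal transcription factor gene Cdx2 had 7 and 2 counts in the same libraries.

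The libraries were then set side by side, as 1 sample each and so with no test. Of the 35 members with at least 1 CPM in both, 17 were higher in library 3 and 18 in library 2, and none passed 1.5-fold. Over all 16712 genes at that level, 3.88% passed 1.5-fold, 1.36% higher in library 3 and 2.52% higher in library 2, so a count of 0 among 35 is near the background. The median distance between the libraries, in either direction, was 1.06-fold for the members and 1.08-fold for all these genes. Cdh1 in library 3 was 0.988 times its level in library 2 (95% counting interval 0.958 to 1.02), and Cldn18 was 1.03 times (0.995 to 1.06).

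The counting interval, which is an exact binomial interval on the reads and covers counting error only, left out 1 for 6 of the 35 members, beside 23% of all genes at that level. Of the 6, 4 were higher in library 3 and 2 in library 2, beside 10.3% and 12.7% of all genes. Tjp1 and Cdh11 were 1.05 times as high in library 3 as in library 2 (1.00 to 1.09 and 1.01 to 1.10). Cldn6 was 1.16 times as high there (1.05 to 1.29), and Cdh18 was 1.48 times as high (1.12 to 1.97) on 82 and 141 counts. On the other side, Cdh6 was 1.19 times as high in library 2 (1.04 to 1.37) and Cdh13 was 1.32 times as high there (1.11 to 1.57). With TMM factors, which rescale the libraries by the bulk of their genes, Cdh18 reached 1.51-fold and was the 1 member past 1.5-fold.

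**Figure D4:**
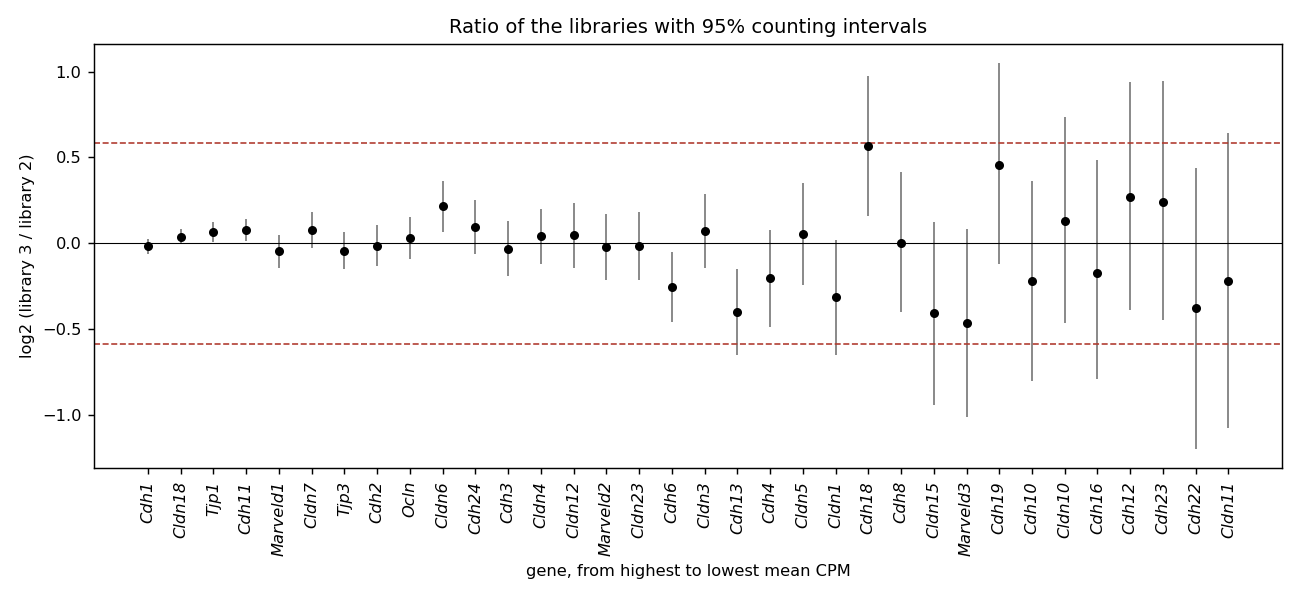
log2 of the level in library 3 over that in library 2 for 34 of the 35 members with at least 1 CPM in both, from the most to the least abundant; bars are 95% counting intervals and dashed lines mark 1.5-fold. The most abundant genes lie near 0, no point passes a dashed line, and Cdh18 at 1.48-fold comes closest.

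Among members below 1 CPM in a library the values parted more, on few counts. Of the 45 members with 3 or more counts in both libraries, 5 passed 1.5-fold, all of them higher in library 2. Over all genes with that many counts, 13.5% passed in either direction, so 5 of 45 is near the background. The share by direction was computed only for genes at 1 CPM or more, where 2.52% were higher in library 2 and 1.36% in library 3. Cldn8, a claudin of tight distal epithelia, had 37 counts in library 2 and 20 in library 3, a 2.15-fold difference (1.22 to 3.91). Cldn9 had 21 and 9 counts (2.71-fold, 1.19 to 6.73), and Cdh15 had 9 and 3 counts (3.49-fold). Cdh17 and Cdh20 also passed, and the intervals of these genes and of Cdh15 hold 1. Markers of other tissues differed between the libraries in both directions. The skeletal muscle list of 12 genes held Myf5, with 0 counts in both libraries. Its genes Myod1, Myog, Mymk and Pax7 had 0 to 2 counts in each library, under the floor. The list summed to 46.3 CPM in library 2 and 30.9 in library 3, and all 6 of its genes at 1 CPM or more were higher in library 2. The hepatocyte list went the other way, with 35.7 and 60.1 CPM, all 4 genes at 1 CPM or more higher in library 3 and none of its 8 genes at 0. All 10 endothelial genes were also higher in library 3, at a sum of 370 and 424 CPM. The part of these tissues in the members' values was not tested.

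Squamous epithelium, which lines the forestomach of the mouse, had markers that differed between the libraries by more than 1.5-fold in 7 of 8 cases. Its 10 markers summed to 671 CPM in library 2 and 360 in library 3, with all 8 genes that reached 1 CPM higher in library 2 and none of the 10 at 0. Krt13, a suprabasal keratin gene, had 145 and 74.2 CPM. All 35 members at 1 CPM stayed within 1.5-fold. Among them, chosen after their values were seen, Cdh3 in library 3 was 0.978 times its level in library 2, Cldn4 was 1.03 times and Cldn1 was 0.805 times (0.638 to 1.01). The general epithelial list, at 1905 and 1899 CPM, was level between the libraries like Cdh1. The part of squamous cells in the members' values was not tested.

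The partners of the members were measured from fixed lists. Catenins, which bind cadherin tails, and their partners had all 11 genes above 1 CPM in both libraries, from Ctnna3 at 2.4 and 2.0 CPM to Ctnnb1. Ctnnb1 (beta-catenin) had 681 and 732 CPM, Ctnnd1 (p120-catenin) 324 and 306 CPM and Ctnna1 (alpha-catenin) 298 and 304 CPM. Per kilobase, Ctnnb1 stood at 188 and 202 and Ctnna1 at 80.0 and 81.5, beside 88.3 and 87.3 for Cdh1. The neural alpha-catenin gene Ctnna2 had 19.1 and 17.9 CPM. All 4 nectin genes exceeded 1 CPM, led by Nectin2 at 109 and 113 CPM. Of the large cadherins, 14 of 17 did, led by Fat1 at 893 and 931 CPM and Fat4 at 584 and 687 CPM.

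Tight junction plaque genes were present throughout, with all 12 above 1 CPM in both libraries, led by Amotl1 at 235 and 238 CPM. Cgn, which encodes cingulin, had 113 and 121 CPM. Among JAM and angulin genes, Cxadr had 152 and 123 CPM, F11r (JAM-A) had 56.2 and 57.9 CPM and Lsr, which brings tricellulin to cell corners, had 69.6 and 67.9 CPM. Ildr1, another angulin gene, had 78 and 40 counts. Of the polarity genes, 14 of 15 in the table reached 1 CPM, with Pard3 at 139 and 133 CPM.

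Most desmosome genes had higher levels in library 2. Of the 12 that reached 1 CPM in both, 11 were higher in library 2, and 2 passed 1.5-fold, beside 3.88% of all genes. Their median of library 3 over library 2 was 0.868, beside 0.991 for the 35 members and 0.989 for all 16712 genes. JAM and angulin genes leaned the same way, with 7 of 8 higher in library 2 and a median of 0.931. Tight junction plaque genes leaned the other way, with 8 of 12 higher in library 3. Dsg3, the desmoglein of squamous epithelium, had 13.2 and 5.1 CPM and Pkp1 had 26.1 and 14.1 CPM, while Dsg2, the desmoglein of simple epithelium, had 83.3 and 92.9 CPM. Dsg3 is also on the squamous list. The difference between desmosome genes and members was not tested, as each library is 1 sample.

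Transcription and splicing factors known to act on junction genes included genes known from epithelium and genes known from mesenchyme. Which cells made them was not measured in whole stomachs. Of the 20 genes, 18 reached 1 CPM in both libraries, 9 higher in each. Zeb2 had 315 and 307 CPM and Zeb1 75.9 and 76.0 CPM; both repress Cdh1 and are known from mesenchyme. The epithelial factor genes Klf5 and Elf3 had 255 and 251 CPM and 109 and 114 CPM. Grhl2, a known activator of Cdh1 and Cldn4, had 57.5 and 51.8 CPM. Snai2 was 1.39 times as high in library 3, at 29.8 and 41.5 CPM. Snai1 was 1.39 times as high there, on 106 and 171 counts, and Twist1 1.32 times, on 56 and 86 counts. Ovol1 was 1.15 times as high in library 3, and Twist2 was level, at 0.999 times. Grhl3 in library 3 was 0.702 times its level in library 2, and Grhl1 was 0.977 times. The genes with ratios were named after their values were seen, and the median ratio of the 18 genes was 1.00. The part of these factors in the members' values was not tested.

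**Figure D5:**
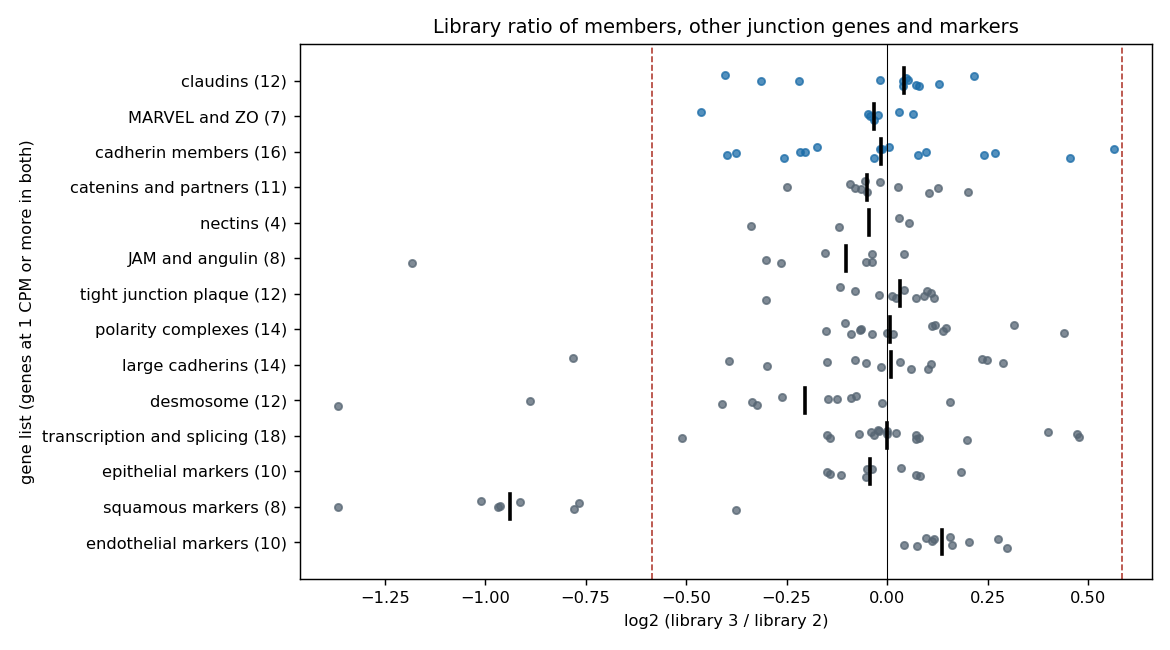
log2 of the level in library 3 over that in library 2 for members (blue) and for other junction genes and markers (grey), counting genes with at least 1 CPM in both; black bars are medians and dashed lines mark 1.5-fold. Members scatter about 0 within the dashed lines, whereas 7 of 8 squamous markers lie beyond the line toward library 2.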

How the data were processed

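RNA was depleted of ribosomal RNA by RNase H and reverse transcribed with random hexamers, per the labels' protocols. Per the submitters' processing notes, the tools were Salmon 1.8.0, Trimmomatic 0.33, FastQC 0.10 and edgeR, and 2 builds are listed (mm10, GRCm38), all without a role. Index, annotation release and strand setting: not given in the sources used here. Values as deposited are estimated counts for Ensembl genes with no depth scaling, of which 28.5% to 29.1% per column were not whole. Columns were matched to samples by title and grouped by the genotype field. 2 further columns without a name were seen on inspection and entered no computation.

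Counts were rounded and tested with edgeR 4.0.16 (R 4.3.3, TMM, filterByExpr, quasi-likelihood F test, Benjamini-Hochberg adjustment over all genes, threshold 0.05), with DESeq2 1.42.0 and limma 3.58.1 (voom) as alternatives. The fits were tested on simulated data. As same-numbered columns repeat a library but for 4 small RNAs, p-values reflect only the spread among columns. As a check of pairing, same-numbered columns deviated together from the group means (r = 0.999 across genes). All 53 members were found by identifier in GENCODE M21 (GRCm38). Intervals are exact, at 95%, and cover counting error only.

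Values are given for members with a mean of at least 10 CPM, for at least the 2 most abundant of each role and for those past 1.5-fold; 1 member is not reported here by name and is left out of plots that label genes, while counts and sums over members include it; lower members named beyond this were chosen after their values were seen. The members and gene lists were chosen with earlier results of these data known.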

Additional observations from a re-analysis of the deposited data

How the results depend on the processing

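The count of called members stayed at 0 under RLE factors, no filter on low counts, DESeq2, limma-voom, the replicate block and each left-out column. The count of called genes was 0 with RLE factors, without the filter and with limma-voom, 3 with DESeq2 and 6 with the replicate block, which pairs the same-numbered columns and changed no member's call. It was 1 to 2 with 1 column left out, the lone column being assumed to vary like the other group. The log2 fold of Cldn18 changed sign, to 0.000253 with RLE factors and 0.000195 with DESeq2, and ran from -0.0302 to 0.0295 with 1 column left out; that of Cdh1 ran from -0.00238 to 0.000789. In these left-out fits the remaining columns hold library 2 and library 3 in unequal numbers. The count of members at 1 CPM in both libraries was 35 to 38, including either library alone, a setting chosen after seeing the data; it was 30 with a minimum of 2 CPM and 45 with one of 3 counts. The count past 1.5-fold between libraries was 0 with the columns of either label alone, 1 (Cdh18) with TMM factors, 1 (Cldn8) with structured and ribosomal RNAs left out of the library size, and 5 with 3 counts as the minimum. Leaving out those RNAs raised all 21 levels of at least 10 CPM by up to 1.21 times, and the columns of 1 label alone moved 1 of 21 by more than 1 SD. Both transcript lengths gave the same 10 leading members per kilobase. With 2 libraries, the SD between genotypes, embryos and preparations cannot be told apart, and members under 1 CPM rest on few counts.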
